A study of Mus musculus with 6 samples.

Results

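The cytosolic ribosome is built from ribosomal RNA and ribosomal proteins, and each of its proteins is encoded by a gene of its own. The members described here are the protein-coding genes of the deposited table with names of the form Rpl, Rps or Rplp followed by a number, together with *Rpsa*, and without the kinases named Rps6k. They were found by a name rule that used no measured values, though it was chosen with earlier results of these data known. They were 86 of the 54532 genes in the table. Of these, 52 encode proteins of the large subunit, 33 encode proteins of the small subunit or their paralogs, and *Rps19bp1*, which the name rule admits, encodes a protein that binds a ribosomal protein. The samples were STRA8+ cells, labelled as germ cells from mouse testis, and their RNA was sequenced to ask what the splicing factor SRSF1 does in male meiosis. The table held 3 control libraries with the genotype Cre and 3 conditional knockout (cKO) libraries with the genotype Srsf1 knockout, and the treatment entry of all 6 was conditional knockout. The Cre driver, the strain and the age of the mice are not given in the labels. The labels do not say that each library came from a separate animal, so the p-values measure the spread among these libraries, which may be technical. Values are FPKM, the fragments counted per kilobase of a gene, with each library scaled by a factor that matched the median of ratios between libraries and not the sum of its fragments.

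The large subunit joins amino acids and holds the tunnel through which the new protein leaves, and the small subunit reads the mRNA. Mammals make the proteins of both subunits in near-equal numbers, and most of their mRNAs start with a run of C and T bases, the terminal oligopyrimidine (TOP) motif, which ties their translation to mTOR signalling. The testis also expresses paralogs of a few members. Among these, the autosomal *Rpl10l* and *Rpl39l* correspond to the X-linked *Rpl10* and *Rpl39*, whose chromosome is silenced in meiosis.

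The fragments counted per library numbered 16962222, 15364511 and 17310353 in control replicates 1 to 3 and 15326722, 14751933 and 14447887 in cKO replicates 1 to 3. *Srsf1* had 84.7, 45.2 and 51.9 FPKM in the controls, in the order of their replicate numbers, and 5.08, 4.94 and 5.17 FPKM in cKO. Every cKO library lay far below every control library (log2 fold change -3.29 ± 0.22, SE, n = 3 per group, limma, Benjamini-Hochberg adjusted p = 5.65e-05). *Stra8*, which names the cells and is induced by retinoic acid before meiosis, had 262, 222 and 249.5 FPKM in control and 242, 313 and 262 FPKM in cKO replicates. Its groups overlapped, and it was not called (log2 fold change 0.15 ± 0.12, limma adjusted p = 0.359).

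Spermatid and pachytene spermatocyte markers were mostly lower in cKO. Of the early meiotic prophase and the spermatogonial markers, 20% each were lower and 0 higher, beside 22.2% and 11.8% of all genes tested. All 10 spermatid markers were lower in cKO, and their summed level was 2630.3, 8589 and 2577 FPKM in control replicates 1 to 3 against 8.72, 8.37 and 6.45 FPKM in cKO replicates 1 to 3. Their most abundant gene, *Tnp2*, had 708, 2648 and 775 FPKM in control and 0.460, 0.863 and 0.356 FPKM in cKO, and *Gsg1* was listed at 0 in cKO replicate 3. Of 10 pachytene spermatocyte markers, 8 were lower and *Hist1h1t* was higher, with sums of 798, 846 and 688 FPKM in control against 135, 111 and 114 FPKM in cKO (most abundant gene *Ldhc*). For 10 early meiotic prophase markers the sums were 1274, 933 and 1175 FPKM against 1008, 1249 and 943 FPKM, and *Spo11* and *Rec8* were lower (most abundant gene *Sycp3*). For 10 spermatogonial markers they were 744, 839.9 and 726 FPKM against 871, 777 and 885 FPKM, and *Id4* and *Dmrtb1* were lower (most abundant gene *Uchl1*). The other 8 had positive log2 fold changes without a call, the median of the 10 was 0.19, and 5 were higher under quantile normalization, 3 with limma-voom, 2 without control replicate 2 and 1 without cKO replicate 1. Quantile normalization called 33.4% of all genes tested higher. The 27 markers of somatic cells summed to 36.1, 46.5 and 37.8 FPKM in control and 66.9, 37.5 and 47.8 FPKM in cKO. Of the 13 of these that were tested, *Rhox5* was called higher (limma adjusted p = 0.0277, 0.00588 to 0.0886 over the alternatives), and the most abundant was *Cldn11*. The call of *Rhox5* was lost without cKO replicate 1 (adjusted p = 0.0844), cKO replicate 3 (adjusted p = 0.0886), control replicate 1 (adjusted p = 0.0823) or control replicate 2 (adjusted p = 0.0656), and with no filter (0.0562). Without cKO replicate 1, cKO replicate 3 or control replicate 1, 0 somatic markers were higher by limma, without control replicate 3, 2 were, and under quantile normalization 5 were. The part of these differences in the results for the ribosomal protein genes was not tested, and in these bulk libraries fewer cells of a type and less RNA per cell cannot be told apart.

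The ribosomal protein genes together took a similar share of the RNA in both groups. They held 2.367, 2.56 and 2.39% of all fragments in control replicates 1 to 3 and 2.54, 2.42 and 2.51% in cKO replicates 1 to 3, with means of 2.44 ± 0.103% and 2.49 ± 0.0601% (SD, n = 3). The groups overlapped, and the difference of the means was smaller than the spread among the control libraries. Measured per length, as a share of the summed FPKM, they held 5.37, 5.42 and 5.39% in control and 5.86, 5.46 and 5.699% in cKO. On this scale every cKO library lay above every control library, while the members' own summed level overlapped, at 16129, 17071 and 16063 FPKM in control and 16269, 16266 and 15723 FPKM in cKO. The summed FPKM of all genes was 300606, 314980.0 and 297768 in control and 277782, 297810.0 and 275907 in cKO, so the denominator of that share was lower in cKO replicates 1 and 3 than in any control library. The large-subunit genes summed to 1.41, 1.44 and 1.39 times the level of the small-subunit genes in control and to 1.32, 1.36 and 1.37 times in cKO. Each cKO library had a lower ratio of large to small subunit than each control library.

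Levels in FPKM ranged widely among the members. FPKM divides by the deposited gene length, which was 383 bases for *Rpl36* and 6256 bases for *Rps24*. In control replicate 1 these genes had 3518 and 12876 fragments, so an order by FPKM depends on that length and differs from an order by fragments. In control, *Rplp1*, of the ribosomal stalk, had the highest mean, 1287 ± 64.7 FPKM (SD, n = 3), and *Rpl24* the lowest, with 0.589, 1.20 and 0.786 FPKM. The median member had 135.8 FPKM in control and 112 FPKM in cKO. Each value is the middle of its own ranking, and the median log2 fold change of the members tested was -0.035. In control 54 members were above 100 FPKM and 7 under 10 FPKM, and in cKO 51 and 7. *Rpl24* had 1.30, 1.26 and 0.383 FPKM in cKO, and as its mean over the 6 libraries was under 1 FPKM it was left out of the test, so that 85 of the 86 members were tested. Of the 100-base windows along *Rpl24*, 40.8% were shared with the annotated gene *Gm28037*.

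Of the 85 members tested, 8 rose (9.41%) and 11 fell (12.9%) in cKO cells at an adjusted p of at most 0.05, against 11.8% and 22.2% of the 15451 genes tested. Both shares lay under those of all genes tested, a difference that was not itself tested, and the remaining 66 members were not called. The median log2 fold change of the members was -0.035, beside -0.0082 over all genes tested, and 36 members had a positive and 49 a negative value. All 3 cKO libraries lay above all 3 controls for 16 members and below for 26, beside 21.8% and 28.6% of all genes. The cKO level was 1.21 to 1.48 times the control level in the members that rose and 0.557 to 0.820 times in those that fell.

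The counts depended on single libraries and on scaling. Without cKO replicate 3, 1 member was higher and 5 lower, and without cKO replicate 1, 3 and 6. Without cKO replicate 2 the counts were 4 and 15, without control replicate 1 they were 4 and 7, and without control replicate 3 they were 3 and 8. The counts over all genes moved as well, from 1821 higher and 3437 lower to 969 and 2693 without cKO replicate 3, and to 1172, 1068 and 1079 higher without cKO replicate 1, control replicate 1 and control replicate 3. Quantile normalization moved the median of all genes from -0.0082 to 0.21. It gave 16 members higher and 12 lower (18.8% and 14.1%), beside 5164 and 2527 of all genes (33.4% and 16.4%). Leaving the members and the 10 most abundant genes out of the library size gave 11 and 10. The sign of the members' median turned positive under these scalings (0.058 and 0.025), and also with FPKM from the summed fragments (0.013) and with limma-voom (0.011). No called member changed direction under any of the alternative fits. Of the 8 rises, that of *Rpl10* was called in all 18 alternative fits, and of the 11 falls, those of *Rpl36*, *Rpl37a* and *Rpl38* were.

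**Figure D1:**
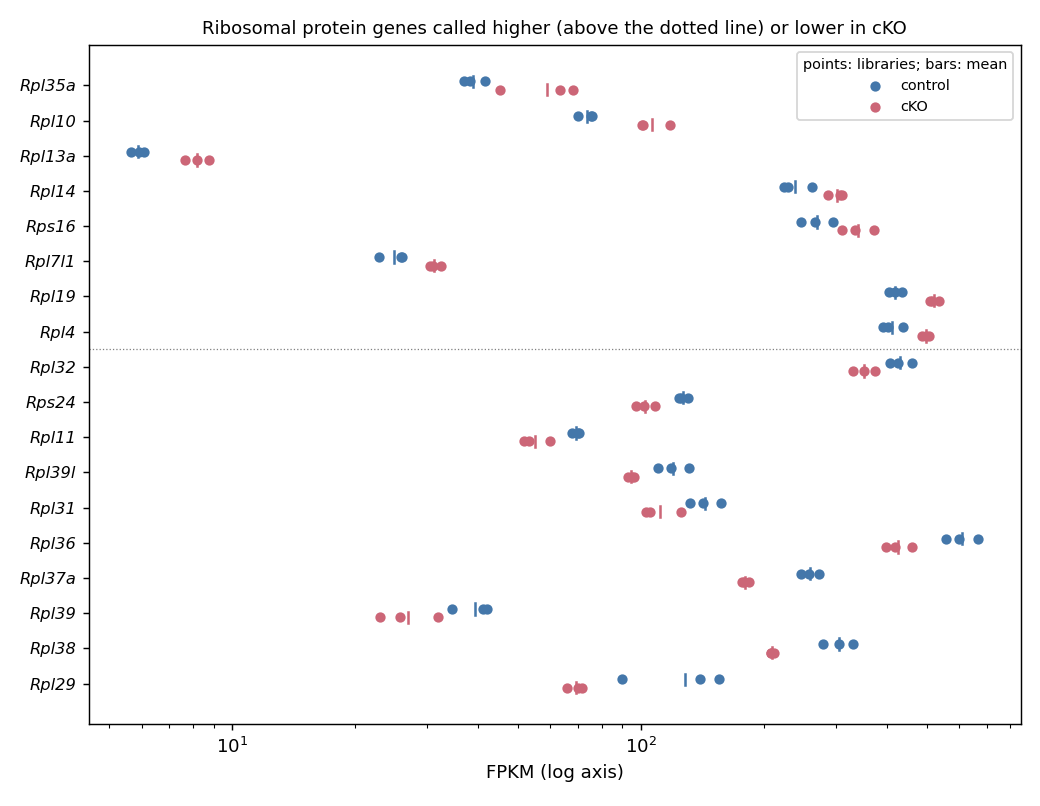
FPKM on a log axis in each library (points) and group means (bars) for the 8 ribosomal protein genes that rose, above the dotted line, and for 10 of the 11 that fell, with no overlap between groups for any gene drawn. None of these changed direction under the alternative scalings.

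The large subunit supplied 51 of the 85 members tested. Of these, 7 rose (13.7%) and 9 fell (17.6%), beside 11.8% and 22.2% of all genes tested. The median log2 fold change was -0.075, which turned to 0.070 under quantile normalization, where that of all genes was 0.21. The counts were 3 and 5 without cKO replicate 1, 4 and 12 without cKO replicate 2, 1 and 4 without cKO replicate 3, 4 and 6 without control replicate 1, and 2 and 5 without control replicate 3. *Rpl38*, a small protein known for its part in translating Hox mRNAs (ENSMUSG00000057322, chr11:114668524-114672331, plus strand of GRCm38), had 329, 305 and 278 FPKM in control and 212, 208 and 207 FPKM in cKO. The cKO libraries lay close together, all below the lowest control library (log2 fold change -0.54 ± 0.081, SE, limma Benjamini-Hochberg adjusted p = 0.00254, 0.00218 to 0.0159 over the 18 alternatives). *Rpl37a* (ENSMUSG00000046330, chr1:72711290-72713813, plus strand), whose protein carries a zinc finger, had 247, 273 and 258 FPKM in control and 183, 178 and 176 FPKM in cKO. Its groups were well apart, with means of 259 ± 13.1 and 179 ± 3.49 FPKM (SD, n = 3), and the log2 fold change was -0.53 ± 0.068 (limma adjusted p = 0.00125, 0.000567 to 0.0142 over the alternatives). *Rpl36* (ENSMUSG00000057863, chr17:56613416-56614243, plus strand), the called member with the highest mean FPKM in control, had 558, 667 and 598 FPKM in control and 418, 461 and 398 FPKM in cKO. Its highest cKO library stayed below its lowest control library (log2 fold change -0.51 ± 0.10, limma adjusted p = 0.00830, 0.00500 to 0.0400 over the alternatives). Of its 100-base windows 44.7% occurred in no other annotated gene, and most of the others were shared with the annotated gene *Gm13611*.

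*Rpl29* had the lowest log2 fold change of the called members. It had 155, 90.0 and 139 FPKM in control and 65.8, 71.8 and 69.9 FPKM in cKO. Control replicate 2 was far below the other control libraries and still above every cKO library (log2 fold change -0.84 ± 0.19, limma adjusted p = 0.0148, 0.000221 to 0.0526 over the alternatives). The call was lost without cKO replicate 1 (adjusted p = 0.0526) or control replicate 3 (adjusted p = 0.0514), and with its pseudogenes summed the log2 fold change was -0.67 (limma adjusted p = 0.00785). *Rpl11*, which binds the 5S ribosomal RNA together with *Rpl5* and can bind the ubiquitin ligase MDM2, had 70.0, 70.3 and 67.6 FPKM in control and 51.7, 59.7 and 53.3 FPKM in cKO. Each cKO library was below each control library (log2 fold change -0.33 ± 0.074, limma adjusted p = 0.0136, 0.00849 to 0.0593 over the alternatives), and the call was lost without cKO replicate 3 (adjusted p = 0.0593). *Rpl5* had 101, 91.1 and 90.2 FPKM in control and 75.3, 88.7 and 82.1 FPKM in cKO. Its groups did not overlap either, but it was not called (log2 fold change -0.20 ± 0.085, limma adjusted p = 0.1199). *Rpl32*, named after its values were seen, had 424, 461 and 407 FPKM in control and 349.9, 374 and 329.99 FPKM in cKO. Its groups did not overlap, and its log2 fold change was -0.29 ± 0.086 (limma adjusted p = 0.0368, 0.0160 to 0.134 over the alternatives). This call was lost without cKO replicate 1 (adjusted p = 0.0947), cKO replicate 3 (adjusted p = 0.134), control replicate 1 (adjusted p = 0.0912), control replicate 2 (adjusted p = 0.0832) or control replicate 3 (adjusted p = 0.0596). It was also lost with no filter on FPKM (adjusted p = 0.0961), without the intensity trend (0.0563) and with the members and the 10 most abundant genes left out of the library size (0.0553).

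Proteins that line the exit tunnel or ring its mouth were called in both directions. Of 9 genes listed, *Rpl4* and *Rpl19* rose (22.2%), *Rpl31* and *Rpl39* fell (22.2%), and 5 were not called, beside 11.8% and 22.2% of all genes tested. The counts were 0 higher and 0 lower by limma without cKO replicate 1, cKO replicate 3 or control replicate 3, 1 and 3 without cKO replicate 2, 1 and 0 without control replicate 1, 1 and 2 without control replicate 2, and 0 and 1 with no filter. The median log2 fold change was -0.045, and it was positive under 4 scalings, at most 0.046 with quantile normalization. *Rpl4*, whose long loop reaches into the tunnel, had 436, 402 and 391 FPKM in control and 487, 506 and 496 FPKM in cKO. *Rpl19* had 418, 434 and 404 FPKM in control and 535, 515 and 509 FPKM in cKO. Every cKO library of these genes was above every control library (log2 fold changes 0.28 ± 0.076 and 0.31 ± 0.072, limma adjusted p = 0.0304 and 0.0163, 0.00308 to 0.111 and 0.00162 to 0.0764 over the alternatives). The call of *Rpl4* was lost without cKO replicate 1 (adjusted p = 0.0689), cKO replicate 2 (adjusted p = 0.0591), cKO replicate 3 (adjusted p = 0.0975), control replicate 2 (adjusted p = 0.0669) or control replicate 3 (adjusted p = 0.107), and that of *Rpl19* without cKO replicate 1 (adjusted p = 0.0577), cKO replicate 3 (adjusted p = 0.0538), control replicate 1 (adjusted p = 0.0589) or control replicate 3 (adjusted p = 0.0667). With no filter on FPKM neither was called (adjusted p = 0.0936 and 0.0610). Both were named after their values were seen. *Rpl31*, at the mouth of the tunnel, had 157, 132 and 142 FPKM in control and 105, 125 and 103 FPKM in cKO. *Rpl39*, a very short protein of the tunnel wall, had 42.0, 34.4 and 40.9 FPKM in control and 22.9, 31.9 and 25.7 FPKM in cKO. Every cKO library of both was below every control library, with cKO replicate 2 closest to the controls (log2 fold changes -0.37 ± 0.10 and -0.53 ± 0.14, limma adjusted p = 0.0334 and 0.0223, 0.0167 to 0.116 and 0.01002 to 0.0767 over the alternatives). The call of *Rpl31* was lost without cKO replicate 1 (adjusted p = 0.102), cKO replicate 3 (adjusted p = 0.116), control replicate 1 (adjusted p = 0.104) or control replicate 3 (adjusted p = 0.0840), and with no filter (0.0676) or no trend (0.0556). That of *Rpl39* was lost without cKO replicate 1 (adjusted p = 0.0650), cKO replicate 3 (adjusted p = 0.0764), control replicate 1 (adjusted p = 0.0767) or control replicate 3 (adjusted p = 0.0718).

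Other large-subunit genes rose. *Rpl10* (ENSMUSG00000008682, chrX:74270812-74273135, plus strand), which joins the large subunit late in its assembly, had 75.6, 70.2 and 75.2 FPKM in control and 100.4, 118 and 101 FPKM in cKO. All cKO libraries were above all controls, with means of 73.7 ± 3.02 and 106 ± 9.80 FPKM (SD, n = 3), and the log2 fold change was 0.52 ± 0.083 (limma adjusted p = 0.00334, 0.000958 to 0.0228 over the alternatives). *Rpl13a*, whose protein also acts in silencing of inflammatory mRNAs, had low values, 5.66, 6.08 and 5.91 FPKM in control and 8.19, 7.66 and 8.78 FPKM in cKO. Its groups did not overlap (log2 fold change 0.42 ± 0.089, limma adjusted p = 0.0112, 0.00153 to 0.0550 over the alternatives), and the call was lost without cKO replicate 3 (adjusted p = 0.0550). Of its 100-base windows 16.9% were shared with the annotated gene *Gm45713*. *Rpl14* had 229, 262 and 223 FPKM in control and 310.2, 306 and 286 FPKM in cKO. Its lowest cKO library lay above its highest control library (log2 fold change 0.34 ± 0.087, limma adjusted p = 0.0232, 0.00433 to 0.0830 over the alternatives), and the call was lost without cKO replicate 1 (adjusted p = 0.0745), cKO replicate 2 (adjusted p = 0.0560), cKO replicate 3 (adjusted p = 0.0511), control replicate 1 (adjusted p = 0.0818) or control replicate 3 (adjusted p = 0.0830), as it was with no filter (0.0569).

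*Rpl35a*, mutated in some families with Diamond-Blackfan anaemia, had the highest log2 fold change of the called members, with 38.2, 41.5 and 36.9 FPKM in control and 68.0, 45.2 and 63.3 FPKM in cKO. In cKO replicate 2 it was near the controls, and in cKO replicates 1 and 3 it was well above them (log2 fold change 0.57 ± 0.15, limma adjusted p = 0.0274, 0.00201 to 0.0957 over the alternatives). The processed pseudogene *Gm10243* was low in cKO replicates 1 and 3, with 47.9, 55.2 and 49.0 FPKM in control and 4.396, 61.1 and 6.72 FPKM in cKO. With the fragments of *Rpl35a* and its pseudogenes summed, the log2 fold change was 0.41 (limma adjusted p = 0.0192). The call of *Rpl35a* was lost without cKO replicate 1 (adjusted p = 0.0799), cKO replicate 3 (adjusted p = 0.0957), control replicate 1 (adjusted p = 0.0804) or control replicate 3 (adjusted p = 0.0831), and with no filter (0.0569).

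In the small subunit, 1 of 33 tested genes rose (3.03%) and 2 fell (6.06%), beside 11.8% and 22.2% of all genes tested, with a median log2 fold change of -0.0085. Scaling moved these counts to 8 higher and 2 lower under quantile normalization, beside 33.4% and 16.4% of all genes. The median there was 0.055, beside 0.21 for all genes. With FPKM from the summed fragments the counts were 4 and 2, beside 14.8% and 21.1% of all genes, and the median was 0.040. Without control replicate 2, 3 were higher and 3 lower, without cKO replicate 1 or 3 or control replicate 1, 0 were higher and 1 lower, without cKO replicate 2, 0 and 3, and without control replicate 3, 1 and 3. *Rps16*, whose tail reaches the transfer RNA in the decoding site, had 247, 295 and 265 FPKM in control and 333, 372 and 310.5 FPKM in cKO. Its groups did not overlap (log2 fold change 0.33 ± 0.10, limma adjusted p = 0.0440, 0.0126 to 0.138 over the alternatives). The call was lost without cKO replicate 1 (adjusted p = 0.0980), cKO replicate 2 (adjusted p = 0.101), cKO replicate 3 (adjusted p = 0.0579), control replicate 1 (adjusted p = 0.138) or control replicate 3 (adjusted p = 0.114), and with no filter (0.0981) or no trend (0.0656). *Rps24*, which is mutated in some families with Diamond-Blackfan anaemia, fell, and was named after its values were seen. It had 125, 130.3 and 124 FPKM in control and 97.0, 108 and 101 FPKM in cKO, with every cKO library below every control library (log2 fold change -0.31 ± 0.067, limma adjusted p = 0.0130, 0.00930 to 0.0550 over the alternatives), and the call was lost without cKO replicate 3 (adjusted p = 0.0550).

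Some abundant or well-studied members were not called, while others, such as *Rpl36*, *Rpl32*, *Rpl19* and *Rpl4*, were. *Rps6*, the target of the S6 kinases downstream of mTOR, had 219.9, 223 and 200.47 FPKM in control and 209, 209 and 208 FPKM in cKO. The groups overlapped, its log2 fold change was -0.035 ± 0.069 (adjusted p = 0.725), and its sign turned positive under 4 alternatives, among them quantile normalization (0.046). *Rpsa*, which also serves as a laminin receptor, had 172, 175 and 158 FPKM in control and 199, 179 and 191 FPKM in cKO (log2 fold change 0.17 ± 0.075, adjusted p = 0.128, 0.0277 to 0.333 over the alternatives), with every cKO library above every control library, and it was called higher under quantile normalization (log2 fold change 0.24). *Rps19*, the gene most often mutated in Diamond-Blackfan anaemia and named after its values were seen, had 63.1, 62.1 and 79.1 FPKM in control and 90.9, 81.9 and 83.9 FPKM in cKO. Its groups did not overlap, and it was just outside the threshold (log2 fold change 0.33 ± 0.11, limma adjusted p = 0.0505, 0.0121 to 0.148 over the alternatives, 8 of which called it). *Rpl41*, which encodes the shortest protein of the members, had 499, 556 and 502 FPKM in control and 483, 509.8 and 467 FPKM in cKO, with overlap (log2 fold change -0.092 ± 0.083, positive only under quantile normalization at 0.038, adjusted p = 0.431).

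None of the 3 stalk genes, which recruit elongation factors, was called by limma or by limma-voom, or had an unadjusted limma p under 0.05. *Rplp1* had 1219.8, 1349 and 1293 FPKM in control and 1359.95, 1389 and 1301 FPKM in cKO, *Rplp0* had 633, 680.3 and 608 and 602, 584 and 629.8 FPKM, and *Rplp2* had 204, 265 and 217 and 263, 230.2 and 239.8 FPKM. The groups of each overlapped. Their log2 fold changes were 0.069 ± 0.093, -0.080 ± 0.083 and 0.10 ± 0.11 (limma adjusted p = 0.601, 0.492 and 0.516). Under quantile normalization *Rplp1* turned to -0.26 and was called lower (adjusted p = 0.0317), and *Rplp0* turned to 0.12 without a call.

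The ratio of a paralog to its parent gene within a library does not depend on a scaling factor for that library. The ratio was compared in 9 pairs with an exact two-sided permutation test, whose smallest possible p with 3 libraries against 3 is 0.1, and every p adjusted over the pairs was 0.225 or more. *Rpl10l*, the autosomal retrogene of *Rpl10*, had 102, 118 and 97.1 FPKM in control and 109.9, 99.1 and 107 FPKM in cKO, a log2 fold change of -0.0036 ± 0.091 that was not called (adjusted p = 0.981) and changed sign under 7 of the alternatives. Its ratio to *Rpl10* was 1.35, 1.68 and 1.29 in control and 1.09, 0.841 and 1.05 in cKO. The ratio was lower in every cKO library than in every control library (log2 difference -0.53, exact p = 0.1). *Rpl39l*, whose protein is needed for normal sperm formation in mice, had 119, 131 and 110.1 FPKM in control and 96.3, 92.6 and 94.8 FPKM in cKO. Like *Rpl39*, it fell (log2 fold change -0.33 ± 0.079, limma adjusted p = 0.0167, 0.0115 to 0.0621 over the alternatives), and its call was lost without cKO replicate 3 (adjusted p = 0.0599). Its ratio to *Rpl39* was 2.82, 3.80 and 2.69 in control and 4.20, 2.91 and 3.68 in cKO, with overlap between the groups (log2 difference 0.21, exact p = 0.4).

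*Rpl7l1* had 26.003, 25.8 and 22.8 FPKM in control and 30.4, 32.3 and 30.9 FPKM in cKO. It rose, with no overlap (log2 fold change 0.32 ± 0.076, limma adjusted p = 0.0182, 0.00331 to 0.0648 over the alternatives), and its call was lost without cKO replicate 2 (adjusted p = 0.0550), cKO replicate 3 (adjusted p = 0.0619) or control replicate 3 (adjusted p = 0.0615). Its parent *Rpl7* was not called, with 129.8, 119 and 116 FPKM in control and 108, 108 and 105 FPKM in cKO (log2 fold change -0.18 ± 0.068, adjusted p = 0.0768). The ratio of *Rpl7l1* to *Rpl7* was 0.200, 0.217 and 0.197 in control and 0.282, 0.299 and 0.295 in cKO. Each cKO ratio was above each control ratio (log2 difference 0.51, exact p = 0.1). *Rps27rt*, near-identical to *Rps27*, had 209, 160.1 and 320.3 FPKM in control and 76.7, 105 and 163 FPKM in cKO, a log2 fold change of -1.003 ± 0.33 (adjusted p = 0.0544, 0.0135 to 0.147 over the alternatives, 5 of which called it). The groups overlapped, with libraries of a group differing about as much as the group means, and as 10.5% of its 100-base windows occurred in no other gene, it is uncertain which copy the fragments came from. Its ratio to *Rps27* was 0.674, 0.533 and 1.15 in control and 0.259, 0.282 and 0.519 in cKO, all lower in cKO (log2 difference -1.15, exact p = 0.1). *Rps4l* is annotated as a transcribed processed pseudogene and is not a member. It had 189, 229.6 and 214 FPKM in control and 327, 279.97 and 304 FPKM in cKO (log2 fold change 0.53 ± 0.10, limma adjusted p = 0.00716). Its ratio to the X-linked *Rps4x* was 16.3, 21.9 and 15.0 in control and 52.4, 28.6 and 30.6 in cKO, higher in each cKO library than in each control library (log2 difference 1.03, exact p = 0.1). The ratios of *Rpl3l*, *Rpl22l1*, *Rpl36al* and *Rps27l* to their parents overlapped between the groups (log2 differences -0.10, -0.060, -0.21 and 0.028, exact p = 0.8, 0.7, 0.5 and 0.8).

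**Figure D2:**
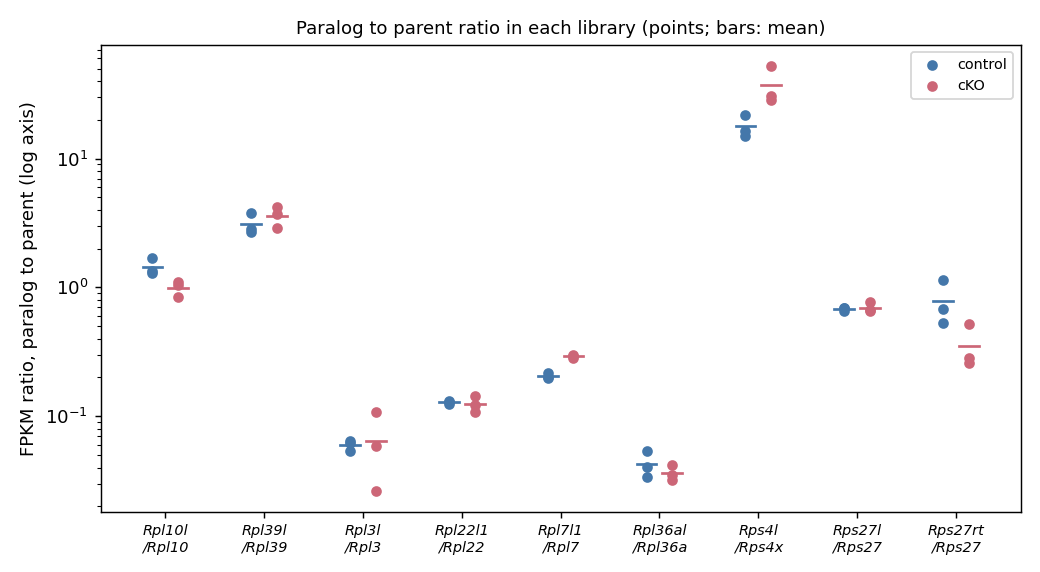
FPKM ratio of each paralog to its parent on a log axis, in each control and cKO library (points) with group means (bars). The groups do not overlap for *Rpl10l*, *Rpl7l1*, *Rps4l* and *Rps27rt*, with exact p = 0.1, the smallest possible.

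The other X-linked members beside *Rpl10* and *Rpl39* are *Rpl36a* and *Rps4x*, which were not called. *Rpl36a* had 58.4, 55.9 and 56.1 FPKM in control and 58.7, 59.2 and 59.4 FPKM in cKO (log2 fold change 0.057 ± 0.057, adjusted p = 0.481). *Rps4x* had 11.5, 10.5 and 14.2 FPKM in control and 6.24, 9.80 and 9.92 FPKM in cKO (log2 fold change -0.45 ± 0.19, adjusted p = 0.108). Neither gene's groups overlapped, with cKO above for *Rpl36a* and below for *Rps4x*.

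Ribosomal protein genes have many processed pseudogenes, and for several members a near-identical copy was high in the libraries where the gene was low. The table held 577 pseudogenes named after a member or sharing a window of 100 bases with it, and these took 6.80 to 8.71% of the fragments on members and pseudogenes together. For 15 members the highest library of a group had more than 1.5 times the FPKM of the lowest, and of these *Rpl29* and *Rpl35a* were called. *Rps2* had 133, 164 and 140.4 FPKM in control and 355, 2.24 and 179.6 FPKM in cKO, while its pseudogene *Rps2-ps13* had 190.4, 233 and 199 FPKM in control and 44.95, 416 and 264 FPKM in cKO. In cKO replicate 2 the gene was nearly without fragments and the pseudogene was at its highest. *Rps18* had 83.0, 150.2 and 79.8 FPKM in control and 137, 8.39 and 68.2 FPKM in cKO, and the annotated coding gene *Gm11361* had 123, 6.77 and 99.4 FPKM in control and 3.98, 188 and 88.0 FPKM in cKO. The libraries with the most *Rps18*, control replicate 2 and cKO replicate 1, had the least *Gm11361*. *Rpl34* had 52.3, 107 and 97.0 FPKM in control and 56.3, 101 and 103 FPKM in cKO, and *Rpl34-ps1* had 323, 51.2 and 32.0 FPKM in control and 363, 44.0 and 33.8 FPKM in cKO. Replicate 1 of each group was low in the gene and high in the pseudogene. *Rpl30* had 24.3, 67.4 and 43.5 FPKM in control and 41.1, 50.5 and 47.4 FPKM in cKO, and the pseudogene *Gm12191* had 233, 24.6 and 90.7 FPKM in control and 98.8, 99.3 and 83.9 FPKM in cKO. Control replicate 1 was lowest in the gene and highest in the copy, and control replicate 2 the reverse. The other members with such a spread were *Rpl17*, *Rpl21*, *Rpl24*, *Rpl3*, *Rpl36al*, *Rpl3l*, *Rps27a*, *Rps27rt* and *Rps4x*, of which *Rpl24* was not tested and the rest were not called.

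The sum was steadier than its parts in *Rpl17*. The gene had 44.6, 137 and 176 FPKM in control and 80.1, 100.4 and 139.8 FPKM in cKO, and *Rpl17-ps10* had 263, 111 and 66.9 FPKM in control and 161, 140.3 and 65.6 FPKM in cKO. Summed, they had 176, 168 and 173 fragments in control and 155, 154 and 152 in cKO per 1e+06 fragments of the library. Each cKO sum was below each control sum, although the gene alone overlapped widely. On the same scale *Rpl34* with *Rpl34-ps1* had 245, 300 and 268 in control and 284, 281 and 299 in cKO. *Rpl30* with *Gm12191* had 150, 212 and 163 in control and 163, 186 and 181 in cKO. The sums stayed uneven in cKO for *Rps2* with *Rps2-ps13* (707, 368 and 591) and for *Rps18* with *Gm11361* (352, 134 and 235). In a fit chosen after seeing the data, in which each member was summed with its pseudogenes, *Rpl17* was called lower (log2 fold change -0.23, limma adjusted p = 0.0464). All 8 rises and all 11 falls were called again in that fit, which gave 9 higher and 13 lower. Which copy the fragments of these members came from is uncertain.

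**Figure D3:**
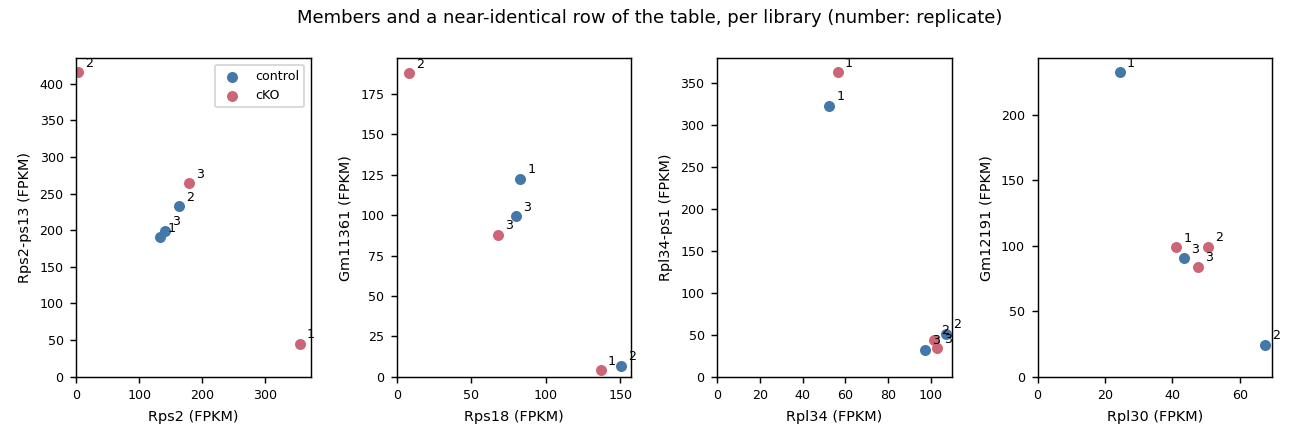
FPKM of 4 members against the FPKM of a near-identical copy in each library, with the replicate number beside each point. *Rps2* is at 2.24 FPKM in cKO replicate 2, where *Rps2-ps13* is at 416 FPKM.

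The called members that fell were mostly shorter than those that rose. The median coding length was 387 bases for the 11 genes that fell, 625.5 bases for the 8 that rose and 462 bases for the 66 not called. Of the 29 members with up to 400 coding bases, 1 rose (3.45%) and 7 fell (24.1%), beside 13.1% and 23.3% of the 695 other protein-coding genes of that length, so that the share of falls was near that of other short genes. Of the 26 members with more than 600 coding bases, 5 rose (19.2%) and 0 fell, beside 12.4% and 21.5% of 10480 other protein-coding genes, and neither difference was tested. Without single libraries the count of falls among the short members was 5 without cKO replicate 1, 10 without cKO replicate 2, 4 without cKO replicate 3, 5 without control replicate 1, 8 without control replicate 2 and 5 without control replicate 3, and the count of rises among the long members was 3 without cKO replicate 1, 2 without cKO replicate 2, 1 without cKO replicate 3, 4 without control replicate 1, 5 without control replicate 2 and 3 without control replicate 3. Under quantile normalization 8 short members were lower and 9 long members higher, beside 16.4% and 33.4% of all genes tested. Among the long members, 0 were lower under every one of the 18 alternative fits. Across members, which are not independent, the log2 fold change and the coding length had a Spearman rho of 0.26 (n = 85), 0.36 for the large-subunit genes (n = 51) and 0.12 for the small-subunit genes (n = 33). The contrast between the subunits rested on single libraries, as the small-subunit rho was 0.39 without cKO replicate 2, where the large-subunit rho was 0.37, and 0.055 without cKO replicate 3. For other protein-coding genes it was 0.076 (n = 12207). Differences between replicates of a single group gave a rho with coding length from -0.27 to 0.33 over the members, as far from 0 as that between the groups. With the trend on coding length over all protein-coding genes removed from each library, the rho was 0.26. The summed FPKM of the short members was 1.48, 1.52 and 1.62 times that of the long members in control and 1.25, 1.48 and 1.30 times in cKO, and cKO replicate 2 overlapped the controls. This grouping was chosen after the data were seen.

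**Figure D4:**
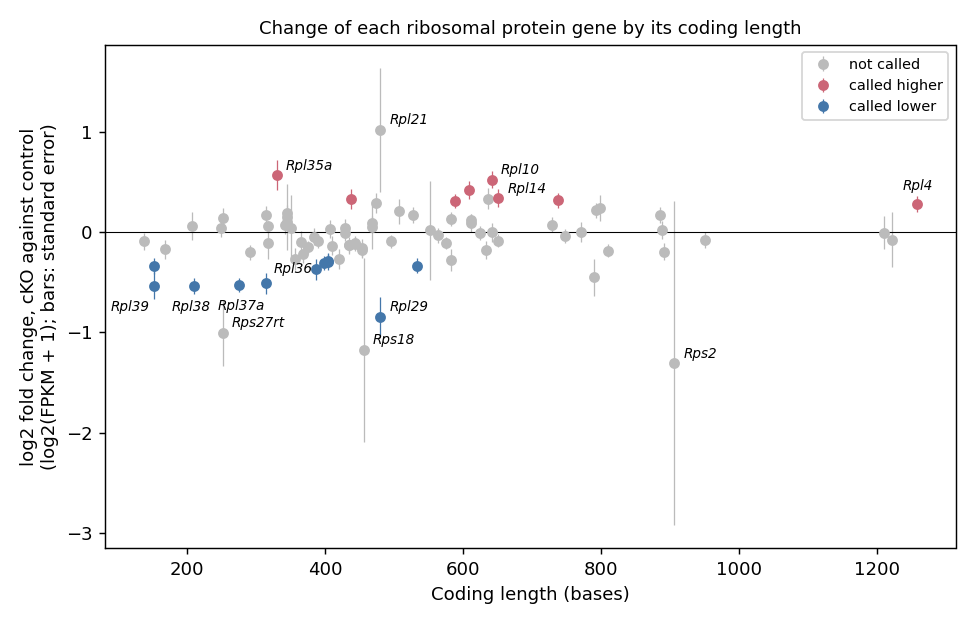
Log2 fold change (cKO against control, bars are standard errors) of the 85 members tested against their coding length in bases. Of the 26 genes with more than 600 coding bases 5 rose and 0 fell (12.4% and 21.5% of other protein-coding genes of that length), and of the 29 with up to 400 bases 1 rose and 7 fell (13.1% and 23.3%), with the sign of no called gene turned by a scaling.

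Ribosomal proteins whose names fall outside the rule were read as well. *Rack1*, a scaffold on the head of the small subunit, fell, with 75.6, 70.7 and 65.5 FPKM in control and 53.3, 56.4 and 56.6 FPKM in cKO and no overlap (log2 fold change -0.34 ± 0.074, limma adjusted p = 0.0125). *Fau*, which encodes a ribosomal protein fused to a ubiquitin-like protein, had 272, 334 and 301 FPKM in control and 307, 327 and 303 FPKM in cKO. It overlapped and was not called (log2 fold change 0.054 ± 0.094, adjusted p = 0.689), and its sign turned negative without control replicate 1 (-0.020). *Rps27a*, a member whose protein is made as a fusion with ubiquitin, had 79.8, 71.1 and 122 FPKM in control and 72.8, 102 and 104 FPKM in cKO, with overlap (log2 fold change 0.052 ± 0.22, adjusted p = 0.878).

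Among genes that make ribosomes, the calls were mostly rises. Of 41 ribosome biogenesis factors 19 rose (46.3%) and 3 fell (7.32%), beside 11.8% and 22.2% of all genes, with a median log2 fold change of 0.26, and the difference from the ribosomal protein genes was not tested. Without cKO replicate 3 the counts were 8 and 2, and without cKO replicate 1, control replicate 1 or control replicate 3 the rises numbered 13, 13 and 12. They numbered 30 under quantile normalization, where 1 was lower, beside 33.4% and 16.4% of all genes. They numbered 24 with limma-voom, with FPKM from the summed fragments or with the members and top 10 genes left out of the scaling. Of all genes, 16.1%, 14.8% and 15.8% were higher in these fits. *Gar1*, of the particles that make pseudouridine, had 48.5, 56.6 and 52.9 FPKM in control and 83.3, 75.4 and 76.7 FPKM in cKO (log2 fold change 0.57 ± 0.081, limma adjusted p = 0.00198). *Sbds*, which helps release the factor that keeps the subunits apart, had 21.8, 21.02 and 22.9 FPKM in control and 13.6, 12.6 and 12.7 FPKM in cKO (log2 fold change -0.72 ± 0.072, limma adjusted p = 0.000388). Neither gene's groups overlapped, with cKO above for *Gar1* and below for *Sbds*. Of 14 genes of RNA polymerase I and its factors, 5 rose (35.7%) and 0 fell (median 0.23), with 2 higher without cKO replicate 1, cKO replicate 3 or control replicate 1, 3 without control replicate 3 and 12 under quantile normalization. *Rrn3*, which recruits the polymerase, had 25.1, 23.0 and 24.4 FPKM in control and 32.6, 30.4 and 32.6 FPKM in cKO, with every cKO library higher (log2 fold change 0.38 ± 0.069, limma adjusted p = 0.00559).

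Of 6 tested chaperones dedicated to single ribosomal proteins, 3 rose (50%) and 1 fell (16.7%), beside 11.8% and 22.2% of all genes tested, and *Pdcd2* was listed at 0. The rises numbered 1 without cKO replicate 2, cKO replicate 3, control replicate 1 or control replicate 3, and with no filter or no trend. *Aamp*, the counterpart of a yeast chaperone of *Rpl10*, fell, with 88.3, 85.1 and 83.2 FPKM in control and 59.3, 61.8 and 56.1 FPKM in cKO and no overlap (log2 fold change -0.53 ± 0.065, limma adjusted p = 0.00103). *Heatr3*, which carries *Rpl5* to the nucleus, rose, with 19.1, 19.9 and 19.3 FPKM in control and 25.6, 27.1 and 25.1 FPKM in cKO and no overlap (log2 fold change 0.40 ± 0.066, limma adjusted p = 0.00413). *Grwd1*, a chaperone of *Rpl3*, rose, with 27.2, 30.7 and 29.9 FPKM in control and 36.7, 34.3 and 33.3 FPKM in cKO and no overlap (log2 fold change 0.24 ± 0.075, limma adjusted p = 0.0471, 0.0128 to 0.148 over the alternatives). Its call was lost without cKO replicate 1 (adjusted p = 0.133), cKO replicate 2 (adjusted p = 0.0874), cKO replicate 3 (adjusted p = 0.0894), control replicate 1 (adjusted p = 0.132) or control replicate 3 (adjusted p = 0.0988), and with no filter (0.0699) or no trend (0.0866). Of 13 tested genes listed for the control of TOP mRNAs or their genes, the transcription factor gene *Mycn* rose and *Larp1* fell, 7.69% in each direction. Under quantile normalization 5 were higher and 1 lower, beside 33.4% and 16.4% of all genes. With limma-voom or the members and top 10 genes left out of the scaling, 2 were higher and 1 lower. *Larp1*, which binds the TOP motif, had 48.2, 50.3 and 41.5 FPKM in control and 34.6, 27.9 and 30.5 FPKM in cKO, with each cKO library below each control library (log2 fold change -0.58 ± 0.11, limma adjusted p = 0.00668). *Mycn* had 5.90, 7.92 and 6.97 FPKM in control and 11.7, 10.6 and 10.1 FPKM in cKO, with each cKO library above (log2 fold change 0.58 ± 0.12, limma adjusted p = 0.00971). Among 77 tested mitochondrial ribosomal protein genes, which serve the other ribosome of the cell, 9 rose (11.7%) and 5 fell (6.49%), beside 11.8% and 22.2% of all genes tested, with a median log2 fold change of 0.065. The counts were 4 and 5 without cKO replicate 1, 5 and 5 without cKO replicate 2, 4 and 3 without control replicate 1, 2 and 3 without cKO replicate 3 or control replicate 3, and 31 and 3 under quantile normalization.

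Start sites were read for the TOP motif in the RefSeq promoter table of GRCm38.p6, which held 66 of the 86 members. The motif searched was a C followed by at least 4 bases that are each C or T, on the strand of the gene. At the annotated start itself it was found in 14 members (21.2%), against 2.86% of 9652 other protein-coding genes tested and 3.01% of all 27025 genes of the table. Within 5 bases of the start it was found in 30 members (45.5%), against 23.2% and 21.2%. Of the members that rose, 2 of 8 had it at the start and 4 within 5 bases, and of those that fell and had an entry, 1 of 7 and 4, so it was found among members of both directions. Members without an entry included *Rpl29*, *Rpl32* and *Rpl36*, which fell.

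Windows of 30 bases, from 10 bases before the annotated start to 20 from it on, show members with and without the run, 5′ to 3′ on the gene's strand. Capitals mark the part of a run that begins within 5 bases of the annotated start, and other C or T bases are in lower case. *Rpl38* (chr11:114668570-114668599, plus strand), *Rpl14* (chr9:120571507-120571536, plus strand) and *Rpl35a* (chr16:33056472-33056501, plus strand) carry it at the start shown, while 2 other annotated starts of *Rpl35a* have none. *Rpl31* (chr1:39367841-39367870, plus strand) carries a run that begins before the start and stops too soon after it to count there. *Rpl10* (chrX:74270806-74270835, plus strand) and *Rpl37a* (chr1:72711250-72711279, plus strand) have none in the window. The testis paralogs *Rpl10l* (chr12:66284382-66284411, minus strand) and *Rpl39l* (chr16:10170218-10170247, plus strand) have none that begins within 5 bases of the annotated start, and each holds a run that begins further upstream and ends before the start, left in lower case. No match says only that these letters are not at the annotated start.
Rpl38: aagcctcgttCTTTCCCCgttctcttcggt
Rpl14: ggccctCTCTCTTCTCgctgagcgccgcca
Rpl35a: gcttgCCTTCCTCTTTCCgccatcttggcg
Rpl31: tcctcgCCTCCCCgtgacccggaagttgta
Rpl10: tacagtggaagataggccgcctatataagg
Rpl37a: ctcgccggtctaaaaccgcgcatgcgcatt
Rpl10l: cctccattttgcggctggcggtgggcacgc
Rpl39l: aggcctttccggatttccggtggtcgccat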

How the data were processed

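RNA-seq values came from 3 control and 3 *Srsf1* cKO libraries of STRA8+ cells. The authors deposited FPKM per gene, after HISAT2 2.0.5 and mm10 per their processing notes, and did not name the counting tool. FPKM times gene length fell on whole fragments for 100% of values (tolerance 0.05), which gave the fragments per gene. Genes averaging 1 FPKM or more (15451) went into limma 3.58.1 (R 4.3.3) on log2(FPKM + 1) (eBayes with trend, two-sided, Benjamini-Hochberg over all genes tested, threshold 0.05), cKO against control. Folds are 2 to the power of these differences. Coding lengths and 100-base windows came from GENCODE (GRCm38) and start windows from RefSeq. Other steps used Python 3.11.15, pandas 2.3.3 and SciPy 1.17.1.

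The members and lists were chosen with earlier results of these data known. Named genes were label checks, paralogs and parents, the 6 largest rises and 6 largest falls without overlap, the 5 most abundant members, listed members of known roles, the untested member and up to 3 called genes per list. Members called outside that rule, single called markers and near-identical copies were named after their values were seen. Some genes under these rules are not reported here. Alternatives were pseudocounts, filters, scalings, limma-voom, no trend, a replicate block, and leaving out each library.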

Additional observations from a re-analysis of the deposited data

How the results depend on the processing

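With 3 libraries a group, 1 library could decide a call, and near-identical copies limit what the fragments of a member show. Over 18 alternative fits and 73 named genes, 1161 of 1310 comparisons kept direction and side of the threshold, 89 lost the call, 14 gained it and 46 changed sign, none of these in a called gene. The cause of the shifts was not tested unless stated. The labels do not say whether same-numbered libraries are paired. Their deviations from the group means correlated at -0.0014, -0.11 and 0.016 across genes, which with 3 libraries a group cannot settle it. The replicate block uses up degrees of freedom. Among the named genes, the block ended the calls of *Rpl35a*, *Rpl13a*, *Rpl14*, *Rps16*, *Rpl7l1*, *Rpl19*, *Rpl4*, *Rpl39*, *Rpl31*, *Rpl39l*, *Rpl32* and *Rps24*. Those of *Rack1*, *Grwd1*, *Polr1a* and *Ubtf* were lost as well (limma adjusted p = 0.0597, 0.148, 0.0532 and 0.0631), and *Rps27rt* gained one (0.0135). These changes are not listed beside each gene. The median-of-ratios scaling equals the deposited one, with a factor of 1.006 in each library.

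The main fit gave 8 members higher and 11 lower. Counts were 3 higher with no filter (35994 genes tested), 16 higher with quantile normalization, and 1 higher and 6 lower with the replicate block. Of the 16, 8 were called in the main fit, and of the 6, 5 were. Counts were 2 and 5 with an absolute log2 fold change of at least 0.5, a stricter rule. Leaving out 1 library gave 1 to 9 higher and 5 to 15 lower. The members' median log2 fold change was 0.013 with FPKM from the summed fragments, 0.025 with the denominator without members and top 10 genes, 0.011 with limma-voom, 0.058 with quantile normalization, and -0.083 to -0.035 leaving out 1 library. All genes higher numbered 5164 with quantile normalization, 891 with the block, 907 with the minimum fold change and 969 to 1767 leaving out 1 library, and all genes lower 1950 with a mean of at least 5 FPKM, where 8929 were tested. The members' share was 5.39% in control and 5.67% in cKO of summed FPKM, and 2.56% and 2.63% of protein-coding fragments, from other denominators.

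Log2 fold changes that changed sign were as follows. With quantile normalization they were -0.26 for *Rplp1*, 0.12 for *Rplp0*, 0.038 for *Rpl41*, 0.046 for *Rps6*, 0.085 for *Rpl10l*, 0.20 for *Rpl3l*, 0.082 for *Rpl3*, 0.14 for *Rpl22l1*, 0.046 for *Rpl22* and 0.23 for *Rpl36al*. With FPKM from the summed fragments they were 0.013 for *Rps6*, 0.044 for *Rpl10l*, 0.042 for *Rpl3* and 0.0025 for *Rpl22*. With the denominator without members and top 10 genes they were 0.025, 0.056, 0.054 and 0.014 for these, and with limma-voom 0.011, 0.045, 0.041 and 9.3e-04. With the coding length trend removed, *Rpl10l* had 0.0085 and *Rpl3* 0.012, and summed with pseudogenes *Rpl3* had 0.031, *Rps2* 0.22 and *Rpl17* -0.23, the last then called lower. The last 2 settings were chosen after seeing the data. Leaving out 1 library gave -0.10 to 0.28 for *Rps27a*, -0.020 to 0.13 for *Fau*, -0.062 to 0.078 for *Rpl10l*, -0.36 to 0.23 for *Rpl3l*, -0.17 to 0.14 for *Rpl3*, -0.57 to 0.40 for *Rpl17*, -0.23 to 0.49 for *Rpl30*, -0.28 to 0.32 for *Rpl34*, -2.60 to 0.79 for *Rps2* and -0.23 to 0.0084 for *Rpl36al*.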

Other observations

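Of 288 pseudogenes named after members, 63 were tested and 58 were not called. Their median log2 fold change was 0.0093, and 3 were higher (4.76%) and 2 lower (3.17%), beside 11.8% and 22.2% of all genes tested. Under quantile normalization the median was 0.22, beside 0.21 for all genes, and 12 were higher and 1 lower, beside 33.4% and 16.4% of all genes. Without cKO replicate 1 no pseudogene was higher and 2 were lower by limma, without cKO replicate 2 the counts were 1 and 4, without cKO replicate 3 they were 4 and 0, without control replicate 1 they were 1 and 0, and without control replicate 3 they were 1 and 1.

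Other mitochondrial and ribosome-making genes changed as well. *Mrps2* had 11.3, 11.6 and 10.6 FPKM in control and 16.0, 15.4 and 15.8 FPKM in cKO, with no overlap (log2 fold change 0.46 ± 0.072, SE, adjusted p = 0.00315 by limma and Benjamini-Hochberg). *Mrpl41* had 42.0, 38.0 and 40.4 FPKM in control and 29.4, 25.5 and 27.9 FPKM in cKO, with each cKO library lower (-0.53 ± 0.079, adjusted p = 0.00251). *Mrps23* had 20.7, 20.03 and 17.3 FPKM in control and 14.6, 13.0 and 12.7 FPKM in cKO, with each cKO library lower (-0.50 ± 0.10, adjusted p = 0.00799). *Gtpbp4*, a GTPase of large-subunit assembly, had 13.6, 11.8 and 11.3 FPKM in control and 16.9, 20.3 and 16.7 FPKM in cKO, all higher in cKO (0.52 ± 0.11, adjusted p = 0.0107). *Ubtf*, the activator bound along ribosomal DNA, had 33.1, 36.4 and 34.9 FPKM in control and 44.4, 42.3 and 43.4 FPKM in cKO, all higher in cKO (0.31 ± 0.065, adjusted p = 0.0106). *Polr1a*, the largest subunit of RNA polymerase I, had 14.1, 12.3 and 14.9 FPKM in control and 20.55, 16.7 and 17.6 FPKM in cKO, all higher in cKO (0.39 ± 0.11, adjusted p = 0.0311, 0.0113 to 0.0872 over the alternatives), and its call was lost without cKO replicate 1 (adjusted p = 0.0872), cKO replicate 3 (adjusted p = 0.0768), control replicate 1 (adjusted p = 0.0719) or control replicate 2 (adjusted p = 0.0681), and with no filter on FPKM (0.0547).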
